A study of Homo sapiens with 24 samples.

Results

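Collagens, laminins, fibronectin and related glycoproteins build the extracellular matrix, the protein network that cells secrete and rest on, and integrins are the receptors through which cells hold it. The 41 genes described here were taken by symbol, with no filter on values, from the 60671 genes listed in both count tables. They are 8 collagen chains of fibrils (COL1A1, COL1A2, COL2A1, COL3A1, COL5A1, COL5A2, COL11A1, COL12A1), 6 collagen chains of basement membranes (COL4A1, COL4A2, COL4A4, COL4A5, COL4A6, COL18A1), 2 chains of collagen VI (COL6A1, COL6A2), 6 laminin chains (LAMA1, LAMA4, LAMA5, LAMB1, LAMB2, LAMC1) and 3 linkers of the basement membrane (NID1, NID2, HSPG2). The others are 7 glycoproteins and proteoglycans (FN1, FBN1, FBN2, SPARC, VCAN, TNC, THBS1), 6 integrin alpha chains (ITGA1, ITGA2, ITGA3, ITGA5, ITGA6, ITGAV) and 3 integrin beta chains (ITGB1, ITGB3, ITGB5). The set was chosen with earlier results of these data known. Shares of all genes given beside it below are therefore a description and not a test of the set.

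Polyadenylated RNA was sequenced in 24 libraries of H1 and H9, which are established human embryonic stem cell lines, in 8 groups of 3. The 18 H1 libraries all carry doxycycline as their treatment. They were CARHSP1 knockdown and nontargeting cells in the primed state, ZNF8 knockdown and nontargeting cells in the naive state, and ZIC2 knockdown and nontargeting cells on day 2 of ectoderm differentiation. The 6 H9 libraries were naive and primed cells, for which no genotype and no treatment are given. For every library, naive and ectoderm ones included, the growth protocol names only StemFlex medium, and the sources used here do not give the coating on which the cells grew, the kind of knockdown construct, or whether a line was 1 clone. They also leave unsaid if the 3 replicates were grown as separate cultures. The p-values below therefore measure only the spread between these libraries, which may be technical.

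A laminin is a trimer of an alpha, a beta and a gamma chain. It polymerises at the cell surface and is joined by nidogens to a sheet of collagen IV, and together with perlecan (HSPG2) they form the basement membrane, the first matrix that the epiblast of an embryo rests on. Integrins are dimers of an alpha and a beta chain. ITGA6 with ITGB1 binds laminins, ITGA5 with ITGB1 binds fibronectin (FN1), and ITGAV with ITGB5 binds vitronectin, and human pluripotent cells in culture are commonly grown on laminin or vitronectin. Primed cells resemble the epiblast after implantation and naive cells the epiblast before it.

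Total counts ran from 6756704 to 20773963 per library. The CARHSP1 transcript averaged 19.5 CPM (counts scaled to equal library size) in CARHSP1 knockdown cells and 152 CPM in nontargeting primed cells, and ZIC2 averaged 272 CPM in ZIC2 knockdown cells and 566 CPM in nontargeting ectoderm cells. ZNF8 averaged 15.4 CPM in ZNF8 knockdown cells and 19.1 CPM in nontargeting naive cells, a difference that did not pass the test (adjusted p = 0.0664), so the transcript gives little check of that label. A list of 10 naive markers summed to 61.6 to 66.9 RPKM (the same per kilobase of gene length) in ZNF8 knockdown cells and 183 to 188 RPKM in nontargeting naive cells. The same list summed to 119 to 129 RPKM in naive H9 cells and 10.7 to 12.8 RPKM in primed H9 cells. A list of 10 neural ectoderm markers summed to 123 to 144 RPKM in ZIC2 knockdown cells and 181 to 213 RPKM in nontargeting ectoderm cells, with RAX at no count in either group. Of 14 fibroblast genes, FAP and DPT had no count in any group, and LUM had none outside nontargeting naive cells. In each group 2 to 4 of the 14 reached a mean of 1 RPKM. The list summed to 22.7 to 24.4 RPKM in nontargeting primed cells and to 4.84 to 6.09 RPKM in nontargeting naive cells. In such bulk RNA, fewer cells of a type and less RNA per cell cannot be told apart.

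COL4A1 and COL4A2 lie head to head on chromosome 13, and their changes are set side by side in each comparison below. For that reason, and because both genes are read from it in opposite directions, the stretch between their RefSeq starts is shown. It spans chr13:110307158-110307283 on the plus strand of GRCh38.p14 (RefSeq), is 126 bases long and is 80.2% G or C. In RefSeq the COL4A1 transcript starts to its left at 110307157 on the minus strand, and COL4A2 starts to its right at 110307284 on the plus strand. Wider gene bounds were used to list the overlapping genes named below. By these bounds COL4A1 reaches to 110307233 and COL4A2 begins at 110305812. The genes then overlap, and no such stretch lies between them. Capitals mark the matches to CCAAT and to GGGCGG, the core letters of a CCAAT box and of a GC box, which were searched on both strands.
COL4A1 to COL4A2: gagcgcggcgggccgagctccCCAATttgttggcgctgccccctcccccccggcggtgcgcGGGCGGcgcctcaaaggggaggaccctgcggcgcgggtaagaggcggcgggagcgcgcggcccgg
The CCAAT match is 22 bases from the RefSeq start of COL4A1 and 101 from that of COL4A2. The GGGCGG match is 62 bases from the first and 60 from the second. Of 35116 RefSeq windows of a start region, 34.6% hold CCAAT on either strand and 45.0% hold GGGCGG. A window was matched for 32 of the 41 genes, of which 10 hold CCAAT and 24 hold GGGCGG. A match is a description of letters only. COL4A5 and COL4A6 form a similar pair on the X chromosome, with the nearest listed starts 379 bases apart.

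Levels of the 41 genes were set on one scale as RPKM, which divides by gene length so that genes can be compared. Ranks, shares and ratios between genes therefore depend on the deposited length, such as 19271 bases for COL4A2 and 14662 for COL4A1. Whether that length matches the transcripts read was not tested. The H1 and H9 libraries come from 2 separate count tables. Of the 41 genes, 20 were at or above 1 RPKM in all 24 libraries, while COL3A1, which had 8 counts over all of them, and ITGA1 reached a group mean of 1 RPKM in no group. The mean summed level of the 41 genes was highest in naive H1 cells, at 953 RPKM in ZNF8 knockdown cells and 797 RPKM in nontargeting naive cells. It was 688 RPKM in CARHSP1 knockdown and 691 RPKM in nontargeting primed cells, 562 RPKM in ZIC2 knockdown and 457 RPKM in nontargeting ectoderm cells, and 502 RPKM in naive and 504 RPKM in primed H9 cells. FN1, SPARC, ITGB1 and ITGB5 had the 4 highest levels of the 41 in both naive H1 groups. The smallest ratio of highest to lowest group mean was that of the laminin gamma chain LAMC1, 1.64, followed by ITGA6 at 2.10. The ratio was 159 for ITGB3, 45.7 for LAMA4, 44.5 for COL12A1, 43.9 for TNC, 43.7 for COL2A1, 35.0 for COL4A6, 28.1 for FN1 and 26.7 for COL1A1.

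**Figure D1:**
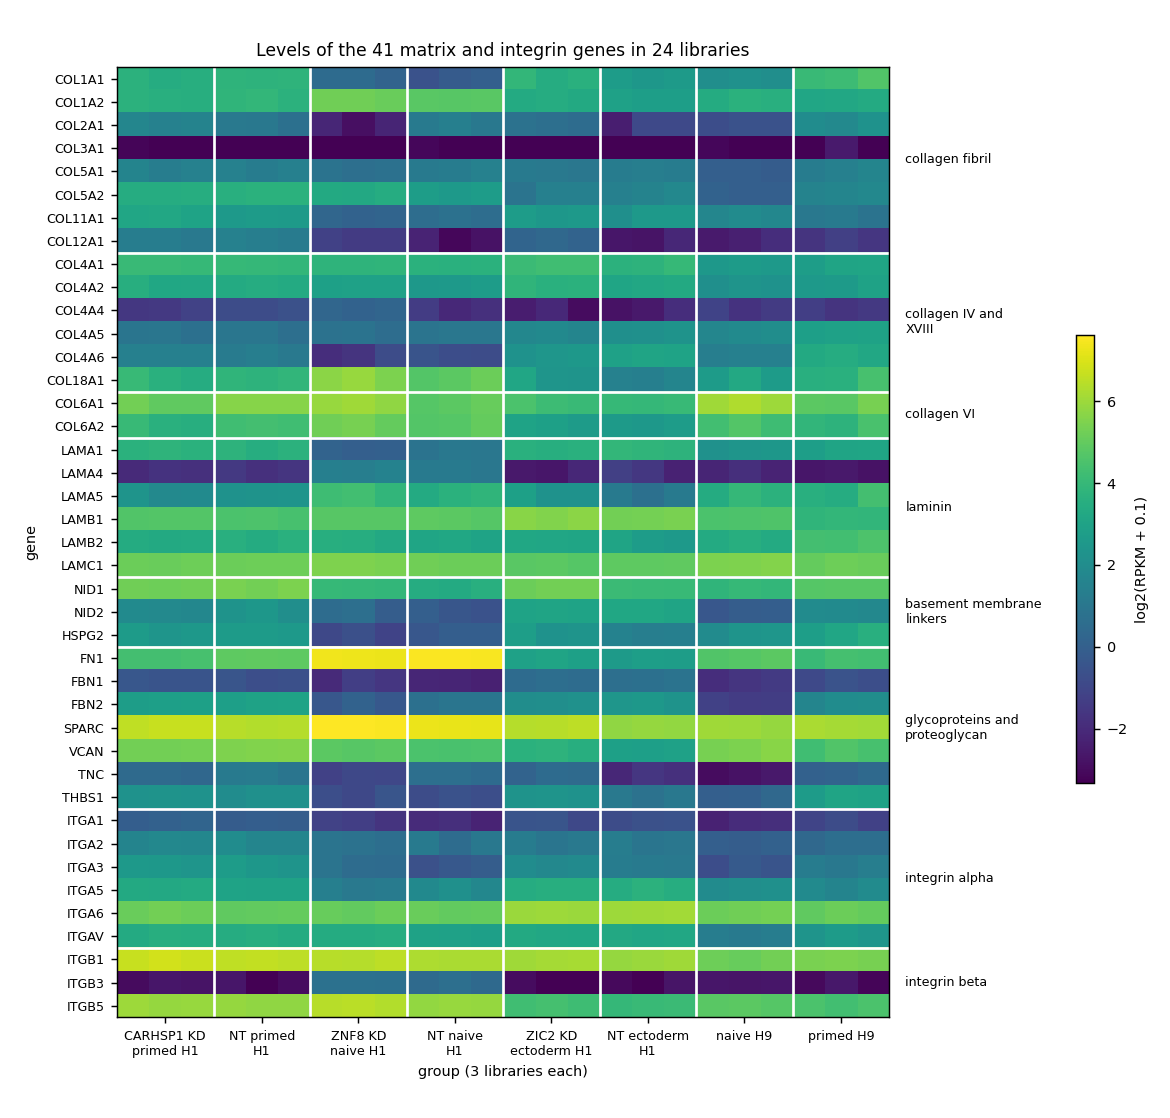
Level of each of the 41 genes (down the page, by role) in each of the 24 libraries (across, by group), as the log2 of RPKM plus a small constant, in colour. LAMC1, LAMB1, ITGB1 and SPARC are high in every library, COL3A1 is near 0 throughout, and FN1, COL1A2, LAMA4 and ITGB3 are brightest in the 6 naive H1 libraries.

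FN1, the glycoprotein that ITGA5 and ITGB1 bind, had the widest range of group means among the 20 genes at or above 1 RPKM in all libraries. It averaged 162 ± 4.23 RPKM in ZNF8 knockdown and 186 ± 4.25 RPKM in nontargeting naive cells (mean ± SD, n = 3 libraries each, as for every level below). It averaged 7.73 ± 0.534 RPKM in ZIC2 knockdown and 6.62 ± 0.403 RPKM in nontargeting ectoderm cells, the lowest of the 8 groups. The other 4 groups lay between, from 19.1 ± 1.88 RPKM in primed H9 cells to 30.1 ± 0.581 RPKM in nontargeting primed H1 cells, so naive H9 cells, at 26.8 ± 2.03 RPKM, were closer to primed cells than to naive H1 cells. SPARC, a collagen-binding matricellular protein, was highest in the same naive H1 cells, at 192 ± 3.09 RPKM in ZNF8 knockdown and 152 ± 4.46 RPKM in nontargeting cells, and lay between 56.8 ± 2.35 RPKM in nontargeting ectoderm cells and 100.5 ± 4.75 RPKM in CARHSP1 knockdown cells elsewhere.

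The 2 chains of collagen I did not keep one ratio. Collagen I, the main fibril collagen of connective tissue, is a trimer in which COL1A1 chains outnumber COL1A2 chains. COL1A2 divided by COL1A1 (RPKM) was 30.8 ± 2.87 in ZNF8 knockdown and 38.4 ± 9.83 in nontargeting naive H1 cells, while the other 6 groups lay between 0.483 ± 0.0684 in primed H9 cells and 2.73 ± 0.148 in naive H9 cells. COL1A1 was at 1.21 ± 0.157 RPKM in ZNF8 knockdown and 0.748 ± 0.160 RPKM in nontargeting naive cells, its 2 lowest groups, and COL1A2 had its 2 highest group means in the same cells. COL4A1 over COL4A2 stayed between 1.18 in primed H9 cells and 2.10 in nontargeting naive H1 cells. COL6A1 over COL6A2 lay between 1.06 in nontargeting naive H1 cells and 3.34 in naive H9 cells. COL4A5 and COL4A6 together made up 36.8% of the RPKM of the 4 chains COL4A1, COL4A2, COL4A5 and COL4A6 in naive H9 cells and 54.9% in primed H9 cells, against 8.03% to 34.7% in the 6 H1 groups.

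**Figure D2:**
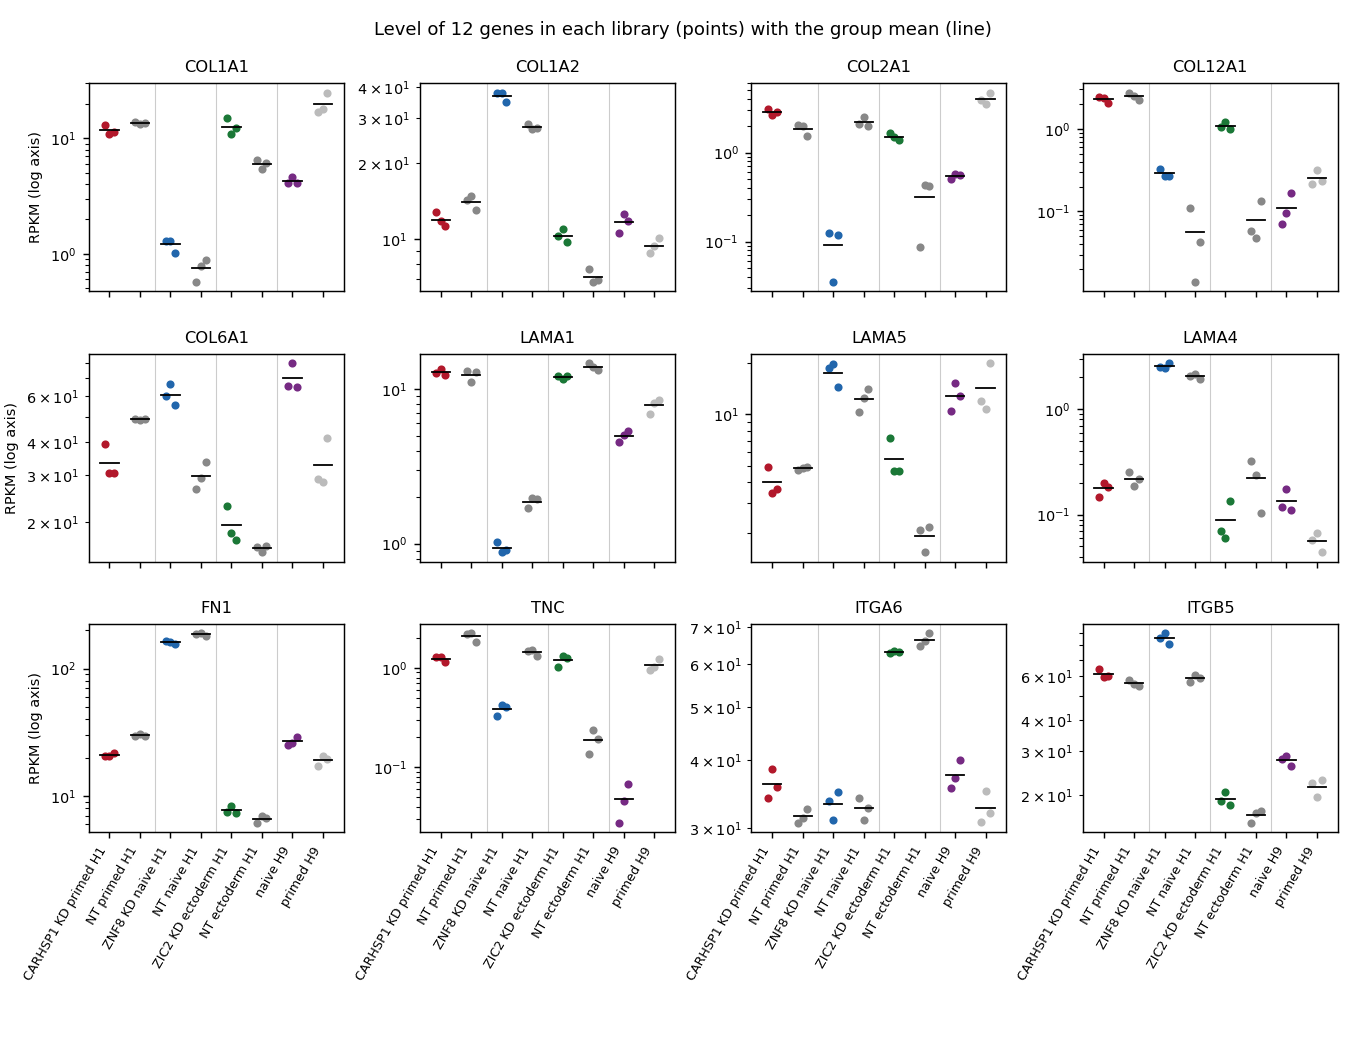
RPKM in each library (points, logarithmic axis) with the group mean (line) for 12 genes, in the 8 groups. COL1A1 and LAMA1 drop in the naive H1 groups where COL1A2, LAMA4, LAMA5 and FN1 are highest or among the highest, while the ITGA6 groups stay within a ratio of 2.10.

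The laminin alpha chain, which carries the main integrin binding site of the trimer, differed between the groups. Between H1 and H9 groups, the line cannot be told apart from the count table, the constructs and the doxycycline. Of the summed RPKM of LAMA1, LAMA5 and LAMA4, LAMA1 made up 4.48 ± 0.606% in ZNF8 knockdown and 11.6 ± 0.700% in nontargeting naive H1 cells. It made up 75.5 ± 3.64% in CARHSP1 knockdown and 71.0 ± 2.03% in nontargeting primed H1 cells, 68.4 ± 5.35% in ZIC2 knockdown and 86.7 ± 1.73% in nontargeting ectoderm cells, and 28.0 ± 2.97% in naive and 36.5 ± 6.71% in primed H9 cells. The LAMA1 shares of naive and primed H9 libraries overlapped, at 24.6% to 30.1% and 29.7% to 43.1%. LAMA5 made up most of the rest in every group. LAMA4, a chain known from vessel and mesenchymal basement membranes, made up 12.4% in ZNF8 knockdown and 12.9% in nontargeting naive H1 cells and at most 1.4% elsewhere. LAMA2, an alpha chain of muscle basement membranes that is not among the 41 genes and is left out of these shares, averaged 140 CPM in naive and 36.1 CPM in primed nontargeting H1 cells. Among beta chains, LAMB1 made up 69.1% of LAMB1 plus LAMB2 in naive and 40.8% in primed H9 cells, and 66.2% to 85.5% in the H1 groups.

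**Figure D3:**
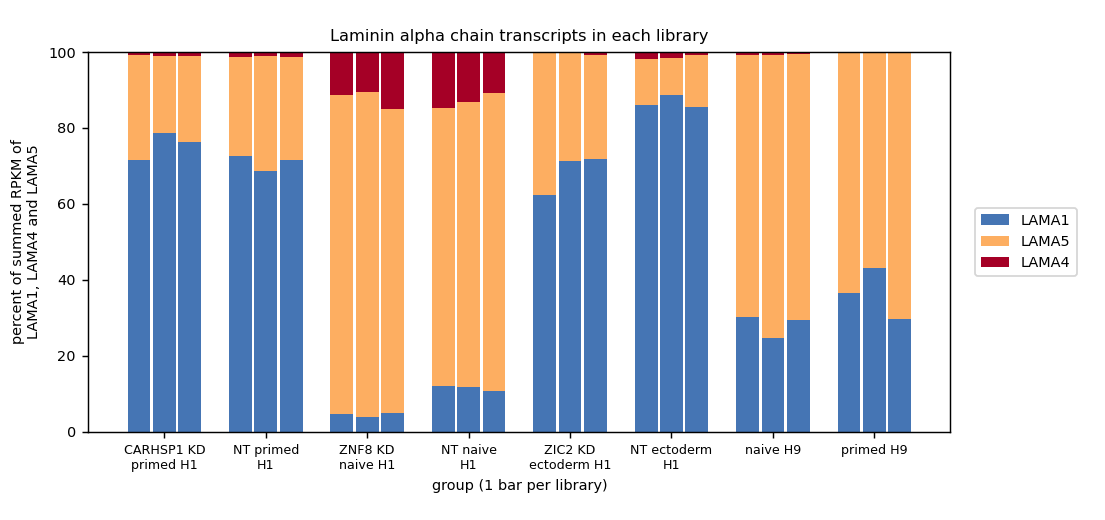
Share (percent) of LAMA1, LAMA5 and LAMA4 in their summed RPKM, 1 stacked bar per library, by group. LAMA5 fills most of each bar in the naive H1 and in the H9 libraries, and LAMA1 fills most of it in the primed and ectoderm H1 libraries, where its group means run from 68.4% to 86.7%.

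Integrins were led by ITGB1, the common partner of most alpha chains, and ITGB5 among beta chains, and by ITGA6 among alpha chains. ITGB1 was at 109 ± 5.64 RPKM in CARHSP1 knockdown and 94.1 ± 1.87 RPKM in nontargeting primed H1 cells, and lowest at 36.3 ± 2.52 RPKM in naive H9 cells. ITGA6, the laminin receptor chain, lay at 63.2 ± 0.208 RPKM in ZIC2 knockdown and 66.4 ± 1.76 RPKM in nontargeting ectoderm cells, and between 31.6 ± 0.886 and 37.6 ± 2.22 RPKM in the other 6 groups. It made up 52.5% to 82.4% of the RPKM of the 6 alpha chains. ITGB3, which pairs with ITGAV and in platelets with another alpha chain, was at 1 RPKM or more only in the naive H1 groups, with 1.57 ± 0.0287 RPKM in ZNF8 knockdown and 1.33 ± 0.147 RPKM in nontargeting cells. The count tables may mix reads of overlapping genes, since no source used here says how strand was treated in counting. This leaves some doubt for COL4A1 with COL4A2, LAMA5 with ADRM1, LAMB1 with DLD, NID2 with RTRAF, FBN2 with SLC27A6, COL18A1 with SLC19A1, THBS1 with FSIP1, ITGA6 with an antisense gene and ITGA1 with PELO on the same strand.

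CARHSP1, an RNA-binding cold shock domain protein, was knocked down in primed H1 cells. FN1, tenascin C (TNC), both collagen VI chains and both nidogens were lower in the CARHSP1 knockdown cells, and the receptor chains ITGB1, ITGA5 and ITGA6 were higher, as were COL2A1, COL11A1 and SPARC. All of these changes were smaller than 2-fold. Of the 39 genes that could be tested, 19 passed edgeR's quasi-likelihood test at an adjusted p under 0.05, 7 higher and 12 lower, where 20.2% of all 15642 genes tested passed, 10.3% higher and 9.87% lower. The median log2 change of the 39 genes was −0.05 and the median of its size 0.18, beside 0.18 over all genes tested. Of 11609 genes with a mean of at least 5 CPM, 24.9% passed.

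FN1 had 359, 359 and 378 CPM in CARHSP1 knockdown cells, against 522, 541 and 521 CPM in nontargeting primed cells. Each CARHSP1 knockdown library lay below every nontargeting one, by a log2 change of −0.53 ± 0.04 (± SE, as for every log2 change below; adjusted p = 3.80e-12). The collagen VI chain COL6A1 had 214, 166 and 166 CPM in CARHSP1 knockdown cells, against 265, 264 and 264 CPM in nontargeting primed cells, and COL6A2 had 88.1, 66.8 and 62.4 CPM in CARHSP1 knockdown cells, against 103, 111 and 103 CPM in nontargeting primed cells. Both sets of libraries were apart, and the log2 changes were −0.54 ± 0.06 and −0.54 ± 0.08 (adjusted p = 1.75e-08 and 3.76e-06). TNC, a glycoprotein of migrating and remodelling tissue, averaged 12.2 ± 0.811 CPM in CARHSP1 knockdown cells and 20.4 ± 2.20 CPM in nontargeting primed cells (log2 change −0.75 ± 0.13). NID2 averaged 22.3 ± 1.30 CPM in CARHSP1 knockdown cells and 31.2 ± 4.35 CPM in nontargeting primed cells (log2 change −0.48 ± 0.11), and NID1 changed by −0.16 ± 0.05. VCAN, a large hyaluronan-binding proteoglycan, averaged 589 ± 9.28 CPM in CARHSP1 knockdown cells and 696 ± 16.8 CPM in nontargeting primed cells (log2 change −0.24 ± 0.04).

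Among genes that were higher, COL11A1, a chain of the thin fibrils of cartilage, had 80.2, 86.9 and 73.2 CPM in CARHSP1 knockdown cells, against 52.7, 59.0 and 56.8 CPM in nontargeting primed cells. The knockdown libraries lay above all controls, with a log2 change of 0.51 ± 0.07 (adjusted p = 2.65e-06). COL2A1, the cartilage fibril collagen, averaged 19.4 ± 1.52 CPM in CARHSP1 knockdown cells and 12.6 ± 1.91 CPM in nontargeting primed cells (log2 change 0.63 ± 0.14). Of the 8 integrin chains tested, 3 rose and none fell. ITGB1 had 640.2, 705 and 652 CPM in CARHSP1 knockdown cells, against 577, 589 and 564 CPM in nontargeting primed cells. Its groups did not overlap (log2 change 0.21 ± 0.04, adjusted p = 0.000527), nor did those of ITGA5, with 74.2 ± 1.55 CPM in CARHSP1 knockdown cells and 58.8 ± 1.33 CPM in nontargeting primed cells, and of ITGA6, with 247 ± 15.4 CPM in CARHSP1 knockdown cells and 216 ± 5.94 CPM in nontargeting primed cells. SPARC averaged 475 ± 21.5 CPM in CARHSP1 knockdown cells and 395 ± 9.42 CPM in nontargeting primed cells (log2 change 0.27 ± 0.04).

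COL4A1 had 255, 251 and 234 CPM in CARHSP1 knockdown cells, against 239.7, 229 and 226 CPM in nontargeting primed cells, and COL4A2 had 223, 179 and 183 CPM in CARHSP1 knockdown cells, against 197, 215 and 197 CPM in nontargeting primed cells. Their groups overlapped and neither passed (log2 change 0.09 ± 0.05 and −0.05 ± 0.06, adjusted p = 0.213 and 0.580). Of the 6 chains of collagen IV and XVIII only COL4A4 passed in this fit, with 2.84 ± 0.605 CPM in CARHSP1 knockdown cells and 5.20 ± 0.495 CPM in nontargeting primed cells. The COL4A4 call was lost in 4 of the alternatives run. With GC and length trends removed COL4A1, COL4A2, COL4A6 and COL18A1 were called higher (0.24, 0.23, 0.33 and 0.20). Without CARHSP1 knockdown replicate 1, COL4A2 and COL18A1 were called lower (−0.16 and −0.29). Of the 6 laminin chains, LAMB1 was higher (log2 change 0.17 ± 0.05) and LAMA5 lower (−0.27 ± 0.09), although the LAMA5 groups overlapped. LAMA1 and LAMC1 had changes of 0.05 ± 0.06 and −0.03 ± 0.05 and did not pass. The changes that did not pass lay between −0.33 and 0.23 over 20 genes.

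The higher and lower counts in this comparison depended on GC content and on single libraries. Genes of at least 60% GC with a mean of at least 5 CPM had a median log2 change of −0.18 in the CARHSP1 knockdown, and 11 of the 41 genes are of that kind (COL1A1, COL2A1, COL5A1, COL4A2, COL18A1, COL6A1, COL6A2, LAMA5, LAMB2, HSPG2 and ITGA3). With GC and length trends removed, 24 genes passed, 14 higher and 10 lower, COL4A2 was called higher (adjusted p = 0.000348), as were COL5A1, HSPG2 and ITGB5, which had not passed, and COL1A1 and LAMA5 turned to 0.0023 and 0.048 and were no longer called. CARHSP1 knockdown replicate 1 stood above the mean of its group over all such GC-rich genes, by a median log2 of 0.14. Without that library 21 genes passed, 7 higher and 14 lower. COL4A2 (−0.16), COL18A1 (−0.29) and HSPG2 (−0.22) were then called lower (adjusted p = 0.0258, 0.000735 and 0.0106). These genes were thus called in opposite directions by 2 alternatives. Without CARHSP1 knockdown replicate 2, 12 genes passed, 5 higher and 7 lower, and COL1A1, COL4A4, COL5A2, ITGA6, LAMA5, LAMB1 and NID1 were lost. FN1, COL6A1, COL6A2, TNC, NID2, VCAN, COL11A1, COL2A1, SPARC, ITGB1, ITGA5 and COL1A2 passed in every alternative run. With GC and length trends removed, their changes in that order were −0.52, −0.32, −0.28, −0.65, −0.43, −0.24, 0.52, 0.85, 0.24, 0.14, 0.42 and −0.26. Those of COL6A1, COL6A2, TNC, NID2, SPARC and ITGB1 were smaller in size than the values given above, and that of COL2A1 was larger. Those of FN1, VCAN and COL11A1 were nearly the same.

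Around these genes, of 27 enzymes and chaperones of collagen synthesis 4 were higher and 7 lower in CARHSP1 knockdown cells. P3H2, a prolyl hydroxylase of basement membrane collagen, averaged 30.0 ± 2.52 CPM in CARHSP1 knockdown cells and 75.1 ± 2.74 CPM in nontargeting primed cells (log2 change −1.32 ± 0.08). Of 16 other basement membrane genes 1 was higher and 6 were lower, with the alpha chain LAMA2 at 24.1 ± 0.882 CPM in CARHSP1 knockdown cells and 36.9 ± 4.08 CPM in nontargeting primed cells. Of 27 adaptors that tie integrins to the cytoskeleton 4 were higher and 2 lower. Beside these lists, 10.3% of all genes tested were higher and 9.87% lower. CCN2, a matricellular protein, averaged 108 ± 5.45 CPM in CARHSP1 knockdown cells and 49.7 ± 1.98 CPM in nontargeting primed cells (log2 change 1.13 ± 0.07). Of 14 fibroblast markers that are not among the 41 genes the summed level was 17.6 to 18.6 RPKM in CARHSP1 knockdown cells and 22.7 to 24.4 RPKM in nontargeting primed cells. The 6 endothelial markers summed to 26.0 to 28.5 RPKM in CARHSP1 knockdown cells and 50.4 to 51.3 RPKM in nontargeting primed cells, most of it KDR, with PECAM1 at no count in nontargeting primed cells. The part of these markers in the result was not tested.

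**Figure D4:**
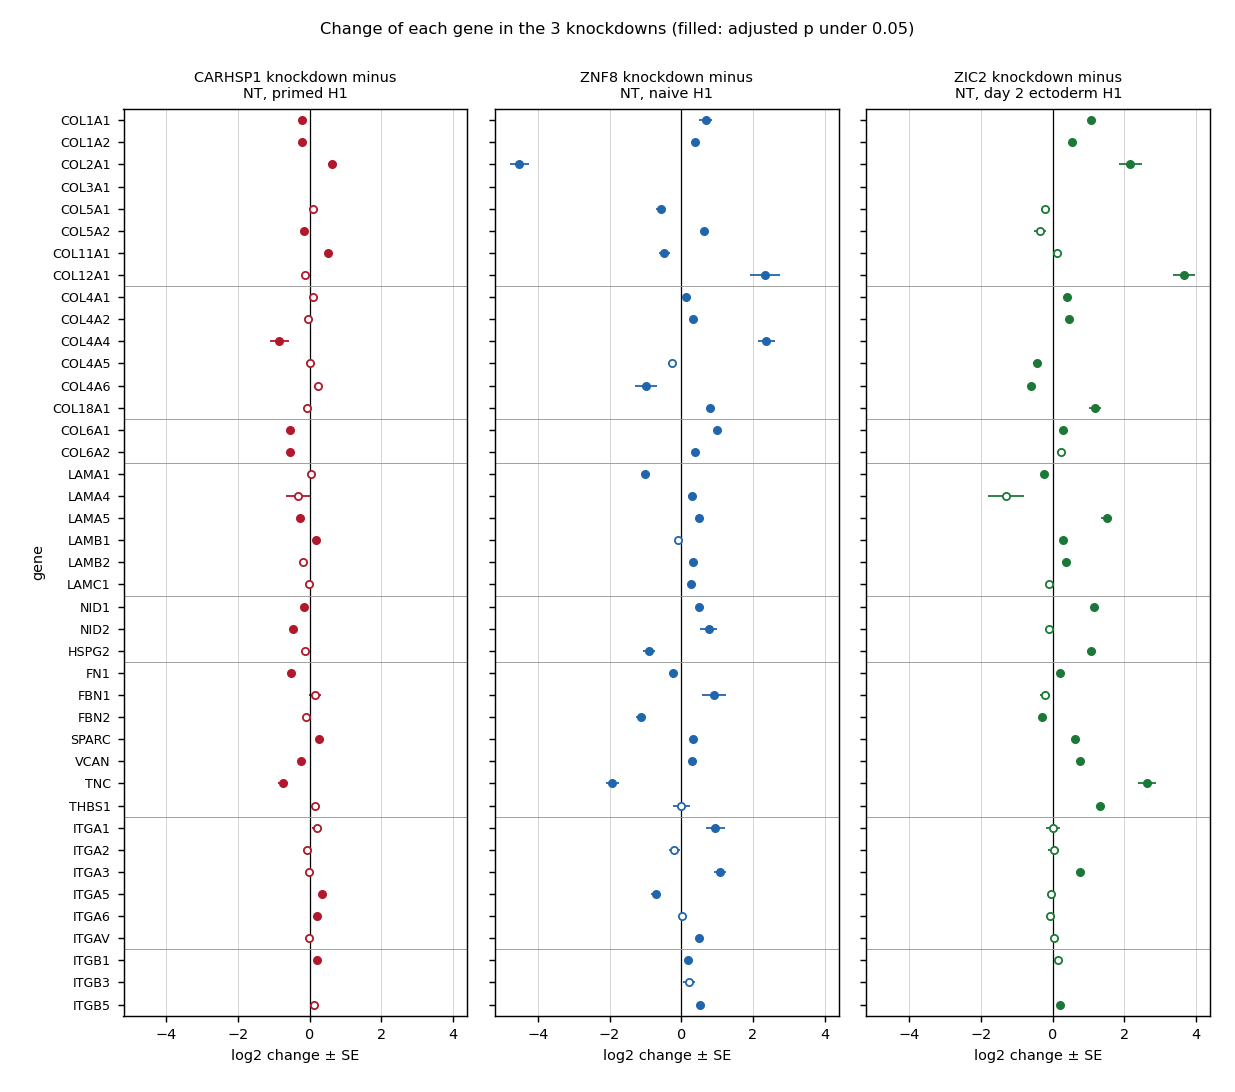
Log2 change (knockdown minus nontargeting, ± SE) of each tested gene in the CARHSP1, ZNF8 and ZIC2 knockdowns (3 panels, genes down the page by role), with filled points for an adjusted p under 0.05. Filled points lie on both sides of 0 for CARHSP1, reach from −4.52 for COL2A1 to 2.38 for COL4A4 for ZNF8, and lie mostly above 0 for ZIC2.

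ZNF8, a zinc finger protein, was knocked down in naive H1 cells. COL6A1, COL18A1, LAMA5, COL5A2, COL1A2, SPARC and the vitronectin receptor chains ITGB5 and ITGAV were higher in ZNF8 knockdown cells, while COL2A1, TNC, FBN2, LAMA1 and ITGA5 were lower and FN1 was slightly lower. Of 40 genes tested 34 passed, 24 higher and 10 lower, where 24.2% of all 15323 genes tested passed, 11.9% higher and 12.3% lower. Of genes with a mean of 5 CPM or more, 28.1% passed. The median log2 change of the 40 genes was 0.30 and the median of its size 0.50, beside 0.19 over all genes tested. At least 2-fold, 4 were higher and 3 lower, where 3.78% of all genes tested were past 2-fold in either direction. As given above, the ZNF8 transcript itself did not pass the test in these cells.

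Among fibril collagens, COL2A1 had 0.769, 0.221 and 0.746 CPM in ZNF8 knockdown cells, against 13.3, 15.9 and 12.5 CPM in nontargeting naive cells. It was almost lost from every ZNF8 knockdown library (log2 change −4.52 ± 0.27, adjusted p = 2.69e-16), while COL1A2 averaged 375 ± 13.5 CPM in ZNF8 knockdown cells and 285 ± 6.25 CPM in nontargeting naive cells. All ZNF8 knockdown libraries lay above all controls for COL1A2 (log2 change 0.40 ± 0.05, adjusted p = 4.38e-08). COL5A2, a chain that regulates fibril width, averaged 69.6 ± 5.57 CPM in ZNF8 knockdown cells and 44.6 ± 2.66 CPM in nontargeting naive cells (0.64 ± 0.08), and COL5A1 went the other way, with 16.8 ± 1.14 CPM in ZNF8 knockdown cells and 25.2 ± 3.21 CPM in nontargeting naive cells (−0.57 ± 0.12). COL1A1 was low in both groups, with 10.2 ± 1.25 CPM in ZNF8 knockdown cells and 6.42 ± 1.39 CPM in nontargeting naive cells, and passed as higher. COL12A1, at 3.41 ± 0.373 CPM in ZNF8 knockdown cells and 0.662 ± 0.583 CPM in nontargeting naive cells, rested on few counts, and its log2 change of 2.34 ± 0.42 became 3.37 without nontargeting naive replicate 1.

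Collagen VI and collagen XVIII were higher. COL6A1 had 297, 333 and 280.3 CPM in ZNF8 knockdown cells, against 134, 148 and 171 CPM in nontargeting naive cells. The groups were well apart (log2 change 1.01 ± 0.06, adjusted p = 1.55e-15). The other chain, COL6A2, also passed as higher, but its groups overlapped. With GC and length trends removed, the changes of COL6A1 and COL6A2 were 0.98 and 0.34. COL18A1, the collagen that carries the endostatin fragment, had 416, 476 and 352 CPM in ZNF8 knockdown cells, against 204, 229.7 and 286 CPM in nontargeting naive cells. Its lowest knockdown library was above its highest control (0.79 ± 0.08, adjusted p = 2.37e-10). COL4A1 had 189, 187 and 199.5 CPM in ZNF8 knockdown cells, against 175, 171 and 173 CPM in nontargeting naive cells, and COL4A2 had 132, 138 and 137 CPM in ZNF8 knockdown cells, against 102, 105 and 118 CPM in nontargeting naive cells. Each group of ZNF8 knockdown libraries lay above its controls, with log2 changes of 0.15 ± 0.05 and 0.32 ± 0.06 (adjusted p = 0.0388 and 0.000119), of which that of COL4A1 was lost in 7 of the alternatives run. COL4A4 averaged 10.1 ± 0.581 CPM in ZNF8 knockdown cells and 1.92 ± 0.694 CPM in nontargeting naive cells (2.38 ± 0.23), and COL4A3, its neighbour and partner chain, which is not among the 41 genes, averaged 6.91 ± 0.531 CPM in ZNF8 knockdown cells and 0.624 ± 0.297 CPM in nontargeting naive cells (3.40 ± 0.32).

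Of the 6 laminin chains 4 rose, 1 fell and LAMB1 did not pass. The call of LAMA4 (0.30 ± 0.10) was lost in 5 of the alternatives run. LAMA5 had 249, 264 and 197 CPM in ZNF8 knockdown cells, against 139.8, 169 and 192 CPM in nontargeting naive cells, with the groups apart by a small gap (0.51 ± 0.08, adjusted p = 3.42e-06). LAMA1 had 15.1, 13.1 and 13.8 CPM in ZNF8 knockdown cells, against 25.6, 29.7 and 29.3 CPM in nontargeting naive cells. It was the chain that fell, with every ZNF8 knockdown library below every control (adjusted p = 1.34e-08). LAMC1 averaged 352 ± 7.39 CPM in ZNF8 knockdown cells and 291 ± 12.7 CPM in nontargeting naive cells (0.27 ± 0.05). Of the linkers, NID1 was higher (0.48 ± 0.07) and perlecan, HSPG2, lower, at 7.43 ± 1.45 CPM in ZNF8 knockdown cells and 13.8 ± 1.75 CPM in nontargeting naive cells (−0.89 ± 0.17).

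FN1 had 2667, 2614 and 2580.0 CPM in ZNF8 knockdown cells, against 3070.0, 3089 and 2975 CPM in nontargeting naive cells. Its groups did not overlap, but the change of −0.22 ± 0.04 was small (adjusted p = 6.67e-05). TNC averaged 3.51 ± 0.465 CPM in ZNF8 knockdown cells and 13.1 ± 0.885 CPM in nontargeting naive cells (−1.92 ± 0.19) and FBN2, a fibrillin of embryonic microfibrils, 9.96 ± 2.10 CPM in ZNF8 knockdown cells and 21.7 ± 1.91 CPM in nontargeting naive cells (−1.13 ± 0.14). SPARC averaged 842 ± 8.09 CPM in ZNF8 knockdown cells and 670.4 ± 17.8 CPM in nontargeting naive cells (0.33 ± 0.04) and VCAN changed by 0.31 ± 0.05. Among receptors, ITGB5 had 523, 547 and 504 CPM in ZNF8 knockdown cells, against 351, 375 and 369.6 CPM in nontargeting naive cells. These groups were apart (0.52 ± 0.05, adjusted p = 4.37e-11), as were those of its partner ITGAV, with 83.2 ± 4.07 CPM in ZNF8 knockdown cells and 59.0 ± 2.14 CPM in nontargeting naive cells (0.49 ± 0.07). ITGB1 had 480.3, 467 and 522 CPM in ZNF8 knockdown cells, against 434, 428 and 427 CPM in nontargeting naive cells, and also rose (0.19 ± 0.05, adjusted p = 0.00324). ITGA5 fell, at 15.9 ± 1.59 CPM in ZNF8 knockdown cells and 26.1 ± 3.74 CPM in nontargeting naive cells (−0.71 ± 0.12), ITGA3 rose, at 13.6 ± 2.14 CPM in ZNF8 knockdown cells and 6.57 ± 1.34 CPM in nontargeting naive cells (1.08 ± 0.17), and ITGA6 did not pass (0.01 ± 0.06).

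Other genes of the pathway moved in both directions. Beside the lists that follow, 11.9% of all genes tested were higher and 12.3% lower. Of 28 adhesion adaptors 14 were higher and 3 lower in ZNF8 knockdown cells, among them caveolin 1 (CAV1) at 60.7 ± 4.94 CPM in ZNF8 knockdown cells and 28.1 ± 4.05 CPM in nontargeting naive cells (1.11 ± 0.09). Of 26 collagen synthesis genes 5 were higher and 8 lower, and P4HA1, a subunit of the prolyl hydroxylase, averaged 87.2 ± 6.75 CPM in ZNF8 knockdown cells and 124 ± 7.51 CPM in nontargeting naive cells. Of 39 other glycoproteins and proteoglycans 13 were higher and 6 lower, with glypican GPC4 at 216 ± 3.07 CPM in ZNF8 knockdown cells and 82.7 ± 5.28 CPM in nontargeting naive cells (1.38 ± 0.06). The gelatinase MMP9 averaged 49.1 ± 1.09 CPM in ZNF8 knockdown cells and 131 ± 10.9 CPM in nontargeting naive cells (−1.41 ± 0.07). The naive markers were lower in the knockdown, as given above, and 10 trophoblast and amnion markers summed to 9.83 to 11.3 RPKM in ZNF8 knockdown cells and 24.3 to 26.2 RPKM in nontargeting naive cells. The 14 fibroblast markers summed to 8.53 to 9.75 RPKM in ZNF8 knockdown cells and 4.84 to 6.09 RPKM in nontargeting naive cells, with LUM and DCN at no count in the knockdown. The part of these cell type markers in the result was not tested.

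ZIC2, a zinc finger transcription factor of the early neural plate, was knocked down in cells on day 2 of ectoderm differentiation. Matrix genes were mostly higher in ZIC2 knockdown cells, with LAMA5, THBS1, NID1, COL18A1, HSPG2, COL1A1 and TNC all at least 2-fold higher. With GC and length trends removed, LAMA5, COL18A1, HSPG2 and COL1A1 were higher by less than 2-fold. The chain pair COL4A5 and COL4A6, LAMA1 and FBN2 were lower. Of these the FBN2 call was lost in 3 runs with a library left out (adjusted p up to 0.127) and that of LAMA1 without ZIC2 knockdown replicate 2 (adjusted p = 0.0563), which left 2 lower genes. Of 38 genes tested 24 passed, 20 higher and 4 lower, where 28.1% of all 15013 genes tested passed, 15.3% higher and 12.8% lower. Of those at 5 CPM or more, 33.0% passed. The median log2 change of the 38 genes was 0.23. At least 2-fold, 9 of the genes that passed were higher and none lower, where 5.32% of all genes tested were past 2-fold in either direction. LAMA4 fell by more than 2-fold but did not pass.

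THBS1, a matricellular protein that binds integrins and CD47, had 44.2, 45.6 and 43.2 CPM in ZIC2 knockdown cells, against 19.3, 15.4 and 18.3 CPM in nontargeting ectoderm cells. The groups were far apart (1.34 ± 0.12, adjusted p = 1.78e-08). NID1 had 209, 227 and 228 CPM in ZIC2 knockdown cells, against 103, 101 and 96.3 CPM in nontargeting ectoderm cells, again with no overlap (1.15 ± 0.07, adjusted p = 1.47e-11). TNC averaged 11.7 ± 1.54 CPM in ZIC2 knockdown cells and 1.83 ± 0.485 CPM in nontargeting ectoderm cells (2.63 ± 0.26), VCAN 186 ± 14.8 CPM in ZIC2 knockdown cells and 111 ± 3.88 CPM in nontargeting ectoderm cells (0.75 ± 0.07) and SPARC 414 ± 23.1 CPM in ZIC2 knockdown cells and 269 ± 10.8 CPM in nontargeting ectoderm cells (0.62 ± 0.06). FN1 had 132, 146 and 129 CPM in ZIC2 knockdown cells, against 108, 122 and 119 CPM in nontargeting ectoderm cells. The lowest ZIC2 knockdown library was above the highest control, but the change of 0.22 ± 0.07 was small (adjusted p = 0.0285) and its call was lost without ZIC2 knockdown replicate 2 (adjusted p = 0.168) and without nontargeting ectoderm replicate 1 (adjusted p = 0.0988).

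Among collagens, COL1A1 averaged 116 ± 19.2 CPM in ZIC2 knockdown cells and 55.0 ± 4.94 CPM in nontargeting ectoderm cells, with every ZIC2 knockdown library above every control (1.08 ± 0.10, adjusted p = 3.50e-08). COL1A2 averaged 114 ± 6.21 CPM in ZIC2 knockdown cells and 78.5 ± 5.06 CPM in nontargeting ectoderm cells (0.54 ± 0.08), and COL2A1 averaged 10.2 ± 0.991 CPM in ZIC2 knockdown cells and 2.12 ± 1.33 CPM in nontargeting ectoderm cells (2.16 ± 0.32). COL12A1, a collagen that coats fibrils, had 13.2, 15.1 and 12.8 CPM in ZIC2 knockdown cells, against 0.738, 0.599 and 1.70 CPM in nontargeting ectoderm cells. It was near 0 in all controls, so its log2 change of 3.67 ± 0.30 rests on few counts there. COL4A1 had 259.9, 285 and 282 CPM in ZIC2 knockdown cells, against 193, 201 and 235 CPM in nontargeting ectoderm cells, and COL4A2 had 274, 239 and 243 CPM in ZIC2 knockdown cells, against 169, 184 and 195 CPM in nontargeting ectoderm cells. The groups of both were apart (0.39 ± 0.07 and 0.46 ± 0.07, adjusted p = 0.000249 and 2.93e-05). COL4A6 had 43.8, 50.2 and 52.3 CPM in ZIC2 knockdown cells, against 71.9, 76.8 and 75.6 CPM in nontargeting ectoderm cells. This chain, and its head-to-head partner COL4A5 with 39.7 ± 2.87 CPM in ZIC2 knockdown cells and 54.0 ± 3.17 CPM in nontargeting ectoderm cells, were lower in every ZIC2 knockdown library (−0.62 ± 0.09 and −0.44 ± 0.10).

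Laminin alpha chains moved in opposite directions. LAMA5 had 106, 67.1 and 67.4 CPM in ZIC2 knockdown cells, against 30.4, 22.6 and 31.7 CPM in nontargeting ectoderm cells. The groups did not overlap (1.51 ± 0.15, adjusted p = 9.36e-08). LAMA1 had 195, 186 and 196 CPM in ZIC2 knockdown cells, against 239, 225 and 215 CPM in nontargeting ectoderm cells. It was lower in all ZIC2 knockdown libraries (−0.23 ± 0.06, adjusted p = 0.00832). LAMB1 averaged 408 ± 22.0 CPM in ZIC2 knockdown cells and 332 ± 13.0 CPM in nontargeting ectoderm cells (0.30 ± 0.06), LAMB2 changed by 0.38 ± 0.11, and LAMC1 and LAMA4 did not pass. LAMA4, a gene of few counts here, had the largest fall of the 38 genes tested (−1.30). It was called lower in 4 of the 13 alternatives run (adjusted p = 0.0044 to 0.0498). HSPG2 had 125, 85.3 and 91.8 CPM in ZIC2 knockdown cells, against 51.1, 44.8 and 47.2 CPM in nontargeting ectoderm cells, and COL18A1 had 75.3, 43.8 and 42.6 CPM in ZIC2 knockdown cells, against 23.3, 21.7 and 26.0 CPM in nontargeting ectoderm cells. The groups of both were apart, with 1 knockdown library above its fellows in each (1.08 ± 0.11 and 1.18 ± 0.17, adjusted p = 1.76e-07 and 1.27e-05).

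Few receptors passed. Of 6 alpha chains only ITGA3 was called, with 36.2 ± 2.66 CPM in ZIC2 knockdown cells and 21.4 ± 1.35 CPM in nontargeting ectoderm cells (0.76 ± 0.12), and of the beta chains only ITGB5, with a change of 0.21 ± 0.07. The ITGB5 call was lost in 5 of the 13 alternatives run, among them the removal of GC and length trends, which gave an adjusted p of 0.203, and the fits without ZIC2 knockdown replicate 2, nontargeting ectoderm replicate 1 or nontargeting ectoderm replicate 2. ITGB1 had 402, 433 and 441 CPM in ZIC2 knockdown cells, against 358, 381 and 406 CPM in nontargeting ectoderm cells. The groups overlapped and it did not pass in this fit (0.15 ± 0.06, adjusted p = 0.0686), but it passed in 6 of the 13 alternatives, among them that removal of trends (0.22, adjusted p = 0.00405) and the fits without ZIC2 knockdown replicate 1 (adjusted p = 0.0340) and without nontargeting ectoderm replicate 3 (adjusted p = 0.0218). ITGA6 had a change of −0.08 ± 0.06, ITGA5 one of −0.05 ± 0.08 and ITGAV one of 0.02 ± 0.08, and none of these passed. On the inner side of the membrane, of 26 adhesion adaptors 13 were higher and 1 lower, with the actin crosslinker ACTN4 at 509.6 ± 57.4 CPM in ZIC2 knockdown cells and 199 ± 16.5 CPM in nontargeting ectoderm cells (1.36 ± 0.08) and vinculin (VCL) at 924 ± 22.6 CPM in ZIC2 knockdown cells and 501 ± 24.2 CPM in nontargeting ectoderm cells (0.88 ± 0.06). Of 16 other basement membrane genes 10 were higher and 3 lower, with agrin (AGRN) at 127 ± 40.9 CPM in ZIC2 knockdown cells and 52.1 ± 4.50 CPM in nontargeting ectoderm cells (1.29 ± 0.14) and SMOC2 at 15.2 ± 2.48 CPM in ZIC2 knockdown cells and 51.7 ± 2.00 CPM in nontargeting ectoderm cells (−1.76 ± 0.12). Of 25 collagen synthesis genes 5 were higher and none lower, with the collagen chaperone SERPINH1 at 503 ± 18.4 CPM in ZIC2 knockdown cells and 311 ± 2.83 CPM in nontargeting ectoderm cells. Beside these lists, 15.3% of all genes tested were higher and 12.8% lower. CCN2 averaged 77.5 ± 3.35 CPM in ZIC2 knockdown cells and 10.7 ± 1.98 CPM in nontargeting ectoderm cells (2.84 ± 0.12).

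GC-rich genes as a whole were higher in the ZIC2 knockdown. The 1364 genes of at least 60% GC and 5 CPM had a median log2 change of 0.37, and the 11 GC-rich genes among the 41 had one of 0.76. ZIC2 knockdown replicate 1 stood 0.18 (median log2) above the mean of its group over the 1364 genes and was the highest library for LAMA5, COL18A1, HSPG2 and COL1A1. With GC and length trends removed, the medians were −0.01 and 0.42, and 23 genes passed, 17 higher and 6 lower. COL18A1 then changed by 0.53 in place of 1.18, HSPG2 by 0.62 in place of 1.08, COL1A1 by 0.74 in place of 1.08 and LAMA5 by 0.92 in place of 1.51. COL6A1 turned to −0.14, and COL4A2, COL6A1, LAMB2 and ITGB5 were no longer called. COL5A1 (−0.49) and ITGB1 (0.22) were newly called, as was COL6A2, which turned from 0.24 to −0.31 (adjusted p = 0.0356). Without ZIC2 knockdown replicate 1, 23 genes passed, 20 higher and 3 lower. The neural ectoderm markers were lower in the knockdown, as given above, and of 6 pluripotency markers 2 were higher and 3 lower, with a summed level of 1229 to 1292 RPKM in ZIC2 knockdown and 1455 to 1595 RPKM in nontargeting ectoderm cells. The 14 fibroblast markers, of which 3 could be tested and none passed, summed to 13.0 to 14.2 RPKM in ZIC2 knockdown and 10.8 to 11.4 RPKM in nontargeting ectoderm cells, and the 6 endothelial markers to 10.3 to 11.2 RPKM in ZIC2 knockdown and 15.7 to 16.5 RPKM in nontargeting ectoderm cells. The part of these markers in the result was not tested.

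Naive H9 cells were compared with primed H9 cells. VCAN, COL6A1, FN1, LAMB1 and LAMC1 were higher in naive H9 cells. Most other matrix genes were lower, among them FBN2, THBS1, COL1A1, NID2, COL4A6, COL5A1, COL5A2, ITGA3 and ITGAV. Of 39 genes tested 33 passed, 9 higher and 24 lower, where 51.5% of all 15761 genes tested passed, 25.4% higher and 26.1% lower. Of genes with a mean of at least 5 CPM, 54.7% passed. The median log2 change of the 39 genes was −0.67. At least 2-fold, 3 were higher and 17 lower, where 17.8% of all genes tested were past 2-fold in either direction. Primed H9 replicate 3 stood 0.20 (median log2) above the mean of its group over GC-rich genes and 0.34 over the 11 GC-rich genes among the 41, and without it 33 genes passed, 9 higher and 24 lower.

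Among glycoproteins, FBN2 had 4.44, 3.81 and 3.93 CPM in naive H9 cells, against 41.1, 52.7 and 54.6 CPM in primed H9 cells. THBS1 had 8.42, 8.51 and 11.1 CPM in naive H9 cells, against 58.6, 78.9 and 72.4 CPM in primed H9 cells. Both were lower in each naive library, with log2 changes of −3.59 ± 0.16 and −2.90 ± 0.14 (adjusted p = 1.02e-12 and 5.39e-12). VCAN had 625, 656 and 765 CPM in naive H9 cells, against 283, 375 and 319.9 CPM in primed H9 cells. It was higher in each naive library (1.07 ± 0.10, adjusted p = 5.40e-08). FN1 had 441, 459 and 510.0 CPM in naive H9 cells, against 299, 369.5 and 342 CPM in primed H9 cells, with the groups apart and a change of 0.48 ± 0.09 (adjusted p = 0.000192). TNC averaged 0.464 ± 0.201 CPM in naive H9 cells and 10.6 ± 1.36 CPM in primed H9 cells (−4.48 ± 0.30), and SPARC did not pass (−0.17 ± 0.08). With GC and length trends removed SPARC was called lower (−0.15, adjusted p = 0.0359).

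COL1A1 had 37.8, 42.1 and 37.9 CPM in naive H9 cells, against 156, 167 and 229.8 CPM in primed H9 cells. The groups were far apart (−2.23 ± 0.13, adjusted p = 3.77e-11), whereas COL1A2 averaged 129 ± 10.9 CPM in naive H9 cells and 105 ± 7.11 CPM in primed H9 cells and was slightly higher in naive cells (0.30 ± 0.09), a call that was lost without primed H9 replicate 1 (adjusted p = 0.0506) and without naive H9 replicate 2 (adjusted p = 0.0713). COL6A1 had 353, 432 and 349.6 CPM in naive H9 cells, against 158, 156 and 225 CPM in primed H9 cells, a rise seen in each library (1.07 ± 0.12, adjusted p = 5.48e-07). COL6A2 did not pass (log2 change 0.33) but was called higher in 6 of the alternatives run. COL4A1 had 83.8, 92.9 and 88.4 CPM in naive H9 cells, against 99.0, 124 and 127 CPM in primed H9 cells, and COL4A2 had 82.6, 98.5 and 90.2 CPM in naive H9 cells, against 117, 124 and 151 CPM in primed H9 cells. Both were lower in all naive libraries (−0.40 ± 0.10 and −0.53 ± 0.10, adjusted p = 0.00278 and 0.000305), and the COL4A1 call was lost with GC and length trends removed. COL4A6 averaged 24.3 ± 1.13 CPM in naive H9 cells and 95.1 ± 7.26 CPM in primed H9 cells (−1.97 ± 0.10) and COL4A5 43.2 ± 5.12 CPM in naive H9 cells and 90.8 ± 4.75 CPM in primed H9 cells (−1.07 ± 0.10). Of the laminin chains 3 rose and 2 fell, the rise of LAMA4 not being called without primed H9 replicate 3 or naive H9 replicate 2. LAMB1 averaged 193 ± 5.82 CPM in naive H9 cells and 120.5 ± 4.75 CPM in primed H9 cells (0.68 ± 0.08), LAMB2 73.6 ± 5.47 CPM in naive H9 cells and 149 ± 14.7 CPM in primed H9 cells (−1.02 ± 0.10) and LAMA1 80.7 ± 6.48 CPM in naive H9 cells and 128 ± 13.7 CPM in primed H9 cells (−0.67 ± 0.10), while LAMA5 did not pass and its groups overlapped. NID2 averaged 5.16 ± 0.641 CPM in naive H9 cells and 23.4 ± 1.56 CPM in primed H9 cells (−2.19 ± 0.16).

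Of the 6 integrin alpha chains 4 were lower in naive H9 cells and none higher. ITGA3 had 5.07, 7.51 and 6.24 CPM in naive H9 cells, against 23.0, 20.4 and 24.4 CPM in primed H9 cells. Its groups were apart (−1.86 ± 0.16, adjusted p = 1.56e-08), as were those of ITGAV, with 19.2 ± 1.02 CPM in naive H9 cells and 46.4 ± 6.22 CPM in primed H9 cells (−1.26 ± 0.12). ITGB1 had 223, 207 and 238 CPM in naive H9 cells, against 257, 275 and 249 CPM in primed H9 cells, a change of −0.22 ± 0.08 whose call was lost in 3 of the alternatives run (adjusted p = 0.0321). ITGB5 rose (0.34 ± 0.09), and ITGA6 and ITGA5 did not pass. With GC and length trends removed both were called higher (adjusted p = 0.00119 and 0.0120), as was COL6A2, and 12 of the 41 genes were higher in place of 9. Of 26 collagen synthesis genes 14 were higher and 5 lower, with P4HA1 at 289 ± 28.7 CPM in naive H9 cells and 94.7 ± 7.47 CPM in primed H9 cells (1.61 ± 0.10) and P3H2 at 8.77 ± 1.20 CPM in naive H9 cells and 56.0 ± 3.25 CPM in primed H9 cells (−2.66 ± 0.13). Of 28 adhesion adaptors 3 were higher and 15 lower. Beside these lists, 25.4% of all genes tested were higher and 26.1% lower. The 14 fibroblast markers summed to 14.4 to 14.7 RPKM in naive H9 cells and 11.2 to 14.4 RPKM in primed H9 cells, the 6 endothelial markers to 6.52 to 8.59 RPKM in naive H9 cells and 14.8 to 16.9 RPKM in primed H9 cells, and the 10 trophoblast and amnion markers to 2.02 to 3.01 RPKM in naive H9 cells and 11.6 to 13.9 RPKM in primed H9 cells. The part of these markers in the result was not tested.

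Naive and primed H1 cells were compared among the nontargeting controls, which also serve as controls of the ZNF8 and the CARHSP1 knockdowns. FN1, SPARC, LAMA5, LAMA4, COL1A2 and COL18A1 were higher in naive H1 cells, and COL1A1, COL12A1, HSPG2, LAMA1, NID2, ITGA3 and THBS1 were lower, each of these last by more than 2-fold. Of 40 genes tested 34 passed, 9 higher and 25 lower, where 71.1% of all 15874 genes tested passed, 35.0% higher and 36.1% lower. Of those with a mean of at least 5 CPM, 76.1% passed. The median log2 change of the 40 genes was −0.64. At least 2-fold, 5 were higher and 16 lower, where 31.8% of all genes tested were past 2-fold in either direction. With GC and length trends removed, 37 genes passed, 13 higher and 24 lower. COL2A1, COL4A5, ITGB5 and LAMC1 were then newly called higher (0.52, 0.29, 0.20 and 0.13), and the call of COL4A1 was lost.

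FN1 had 3181, 3206 and 3088 CPM in naive H1 cells, against 512, 527 and 511 CPM in primed H1 cells. It was several times higher in each naive library, with a log2 change of 2.61 ± 0.04 (adjusted p = 8.34e-58). COL1A1 had 5.07, 7.02 and 7.88 CPM in naive H1 cells, against 124, 119.7 and 122 CPM in primed H1 cells, and COL1A2 had 302, 289.6 and 296 CPM in naive H1 cells, against 154, 159.6 and 141 CPM in primed H1 cells. Thus the chains of collagen I moved in opposite directions with no overlap in either (−4.21 ± 0.10 and 0.97 ± 0.05, adjusted p = 8.14e-45 and 8.90e-27). COL12A1 averaged 0.686 ± 0.604 CPM in naive H1 cells and 30.9 ± 3.21 CPM in primed H1 cells, and its change of −5.44 ± 0.24 became −6.48 without nontargeting naive replicate 1.

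LAMA1 had 26.5, 30.8 and 30.4 CPM in naive H1 cells, against 208, 175 and 205 CPM in primed H1 cells. LAMA5 had 145, 176 and 199.5 CPM in naive H1 cells, against 67.0, 69.1 and 70.1 CPM in primed H1 cells. LAMA4 had 24.6, 25.7 and 23.0 CPM in naive H1 cells, against 3.05, 2.25 and 2.61 CPM in primed H1 cells. One alpha chain was thus lower and the others higher in every naive library, with changes of −2.75 ± 0.07, 1.33 ± 0.07 and 3.18 ± 0.18 (adjusted p = 5.94e-43, 1.40e-26 and 3.00e-24). LAMC1 did not pass (−0.01 ± 0.05) except with GC and length trends removed, and LAMB1 rose by 0.31 ± 0.05. All 3 linkers fell, with HSPG2 at 14.4 ± 1.83 CPM in naive H1 cells and 111 ± 4.17 CPM in primed H1 cells (−2.96 ± 0.09), NID1 at 62.4 ± 4.18 CPM in naive H1 cells and 242 ± 13.5 CPM in primed H1 cells (−1.96 ± 0.06) and NID2 at 4.48 ± 1.06 CPM in naive H1 cells and 30.6 ± 4.14 CPM in primed H1 cells (−2.74 ± 0.16). COL4A1 had 182, 177 and 179.7 CPM in naive H1 cells, against 235, 223 and 222 CPM in primed H1 cells, and COL4A2 had 106, 109 and 123 CPM in naive H1 cells, against 193, 209.5 and 194 CPM in primed H1 cells. Both were lower in all naive libraries (−0.34 ± 0.05 and −0.82 ± 0.06, adjusted p = 1.07e-08 and 8.47e-21), and the call of COL4A1 was lost with GC and length trends removed. COL18A1 averaged 249 ± 43.8 CPM in naive H1 cells and 118 ± 6.65 CPM in primed H1 cells (1.06 ± 0.06), and COL6A1 fell (−0.73 ± 0.05) while COL6A2 rose (0.52 ± 0.06).

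SPARC averaged 695 ± 17.9 CPM in naive H1 cells and 387 ± 10.4 CPM in primed H1 cells (0.85 ± 0.04), VCAN 327 ± 2.92 CPM in naive H1 cells and 682 ± 16.0 CPM in primed H1 cells (−1.06 ± 0.04) and THBS1 4.73 ± 0.448 CPM in naive H1 cells and 38.7 ± 2.40 CPM in primed H1 cells (−3.03 ± 0.14). Of the 6 integrin alpha chains 5 were lower in naive H1 cells and none was higher. ITGA3, which binds laminins, had 5.41, 6.85 and 8.20 CPM in naive H1 cells, against 62.9, 52.5 and 48.1 CPM in primed H1 cells. Its groups were far apart (−3.02 ± 0.13, adjusted p = 7.85e-31), ITGA5 changed by −1.08 ± 0.09, and ITGA6 did not pass (0.03 ± 0.05). ITGB1 had 450.3, 445 and 443 CPM in naive H1 cells, against 566, 574 and 554 CPM in primed H1 cells, lower in each naive library (−0.34 ± 0.04, adjusted p = 4.10e-11). ITGB3 averaged 8.32 ± 0.910 CPM in naive H1 cells and 0.184 ± 0.186 CPM in primed H1 cells, and its change of 5.20 ± 0.43 rests on a primed group with almost no counts. Of 16 other basement membrane genes 9 were higher and 5 lower, with nephronectin (NPNT) at 93.3 ± 2.43 CPM in naive H1 cells and 3.43 ± 0.895 CPM in primed H1 cells (4.79 ± 0.12). Of 26 collagen synthesis genes 7 were higher and 16 lower, with LOXL3, an oxidase that crosslinks collagen, at 1.37 ± 0.404 CPM in naive H1 cells and 29.9 ± 4.35 CPM in primed H1 cells (−4.47 ± 0.20). Beside these lists, 35.0% of all genes tested were higher and 36.1% lower. Of 8 fibroblast markers tested 2 were higher and 5 lower, and the list summed to 4.84 to 6.09 RPKM in naive H1 cells and 22.7 to 24.4 RPKM in primed H1 cells. The endothelial markers summed to 4.24 to 4.91 RPKM in naive H1 cells and 50.4 to 51.3 RPKM in primed H1 cells. The reverse held for 8 markers of definitive endoderm and mesoderm, at 70.5 to 79.3 RPKM in naive H1 cells and 4.02 to 4.58 RPKM in primed H1 cells, most of it MIXL1, and for the trophoblast and amnion markers, at 24.3 to 26.2 RPKM in naive H1 cells and 4.56 to 5.81 RPKM in primed H1 cells. The part of these markers in the result was not tested.

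The naive minus primed change was then compared between H9 and H1 cells in one interaction fit. The lines also differ in table, in the nontargeting construct and in the doxycycline of the H1 cells, which cannot be told apart from the line. Of 40 genes tested 31 differed, 16 with the higher and 15 with the lower change in H9, where 49.9% of all 17140 genes tested differed, 26.2% higher and 23.6% lower. FN1 rose in both lines, by 0.48 in H9 and 2.61 in H1, a difference of −2.14 ± 0.09 (adjusted p = 4.97e-18). VCAN was higher in naive H9 (1.07) and lower in naive H1 cells (−1.06), a difference of 2.12 ± 0.11 (adjusted p = 2.53e-16). COL6A1, COL11A1, HSPG2, COL1A1 and LAMA1 also had the higher change in H9, and COL18A1 (−1.04 in H9 and 1.06 in H1), COL2A1, TNC, LAMA5 and LAMA4 the lower one. COL11A1 changed by 0.79 in H9 and −2.07 in H1, a reversal of sign with a difference of 2.85 ± 0.17. Differences did not pass for COL4A1, COL4A2, COL4A6, COL6A2, NID2, THBS1, ITGA2, ITGA6 and ITGB1. For ITGB1 that difference was 0.11 ± 0.09, and for COL4A1 and COL4A2 it was −0.07 ± 0.11 and 0.28 ± 0.12. Of these 9 genes, COL6A2, ITGA6 and ITGB1 passed with GC and length trends removed, COL4A2 in 4 and NID2 in 3 of the alternatives run.

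**Figure D5:**
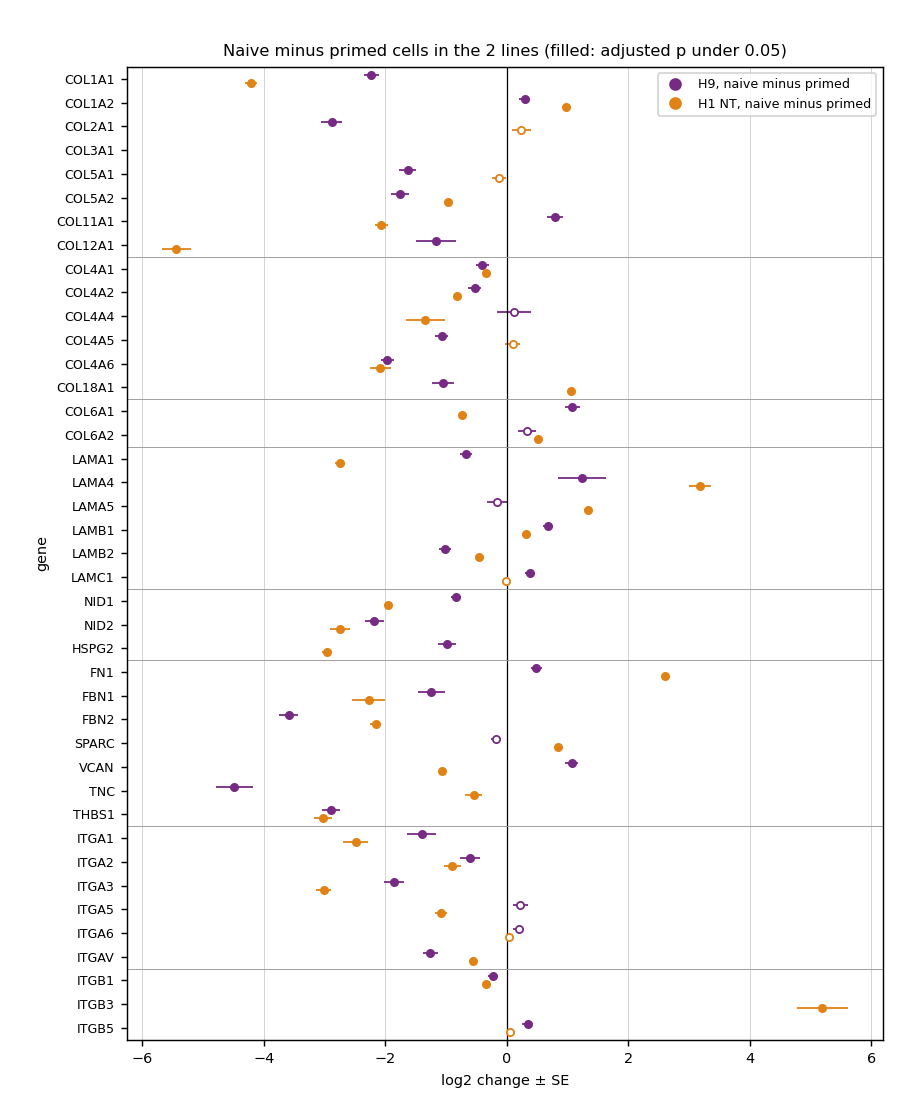
Log2 change of naive against primed cells (± SE) for each gene, by role down the page, in H9 and in nontargeting H1 cells. The H1 point lies to the right of the H9 point for FN1 (0.48 in H9 and 2.61 in H1), LAMA5, LAMA4, COL18A1 and COL2A1, and to its left for VCAN, COL11A1, LAMA1 and COL1A1.

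Nontargeting ectoderm cells of day 2 were compared with nontargeting primed H1 cells, which are also the controls of the ZIC2 and of the CARHSP1 knockdowns. The laminin receptor chain ITGA6, the collagen chains COL4A5 and COL4A6, LAMB1, NID2, FBN1 and ITGA5 were higher in ectoderm cells. Most matrix genes were lower, among them VCAN, FN1, COL6A1, COL18A1, COL5A2 and ITGB5. Of 39 genes tested 36 passed, 8 higher and 28 lower, where 62.8% of all 15409 genes tested passed, 30.7% higher and 32.1% lower. Of genes at 5 CPM or more, 69.3% passed. The median log2 change of the 39 genes was −0.76. At least 2-fold, 4 were higher and 17 lower, where 21.3% of all genes tested were past 2-fold in either direction.

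ITGA6 had 442, 451 and 464 CPM in ectoderm cells, against 212, 215 and 223 CPM in primed cells. Each ectoderm library was above each primed one (1.06 ± 0.05, adjusted p = 2.41e-16), while ITGB5 had 103, 112 and 114 CPM in ectoderm cells, against 389, 373 and 368 CPM in primed cells and was lower in each (−1.78 ± 0.06, adjusted p = 9.56e-21). ITGB1 had 357, 380.2 and 404 CPM in ectoderm cells, against 581, 589 and 567 CPM in primed cells, again with no overlap (−0.60 ± 0.05, adjusted p = 1.05e-10). ITGA5 rose (0.55 ± 0.08), and ITGA1, ITGA2, ITGA3 and ITGAV fell, by log2 changes from −1.40 for ITGA3 to −0.26 for ITGAV.

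VCAN had 111, 106 and 114 CPM in ectoderm cells, against 682, 705 and 710.5 CPM in primed cells. FN1 had 108, 121 and 118 CPM in ectoderm cells, against 526, 541 and 523 CPM in primed cells. Both were several times lower in every ectoderm library (−2.66 ± 0.06 and −2.19 ± 0.06, adjusted p = 1.69e-25 and 4.32e-23). TNC averaged 1.83 ± 0.485 CPM in ectoderm cells and 20.5 ± 2.20 CPM in primed cells (−3.44 ± 0.22) and SPARC 268 ± 11.0 CPM in ectoderm cells and 396 ± 10.8 CPM in primed cells (−0.57 ± 0.05), while FBN1 was higher, at 25.8 ± 1.47 CPM in ectoderm cells and 9.23 ± 1.07 CPM in primed cells (1.47 ± 0.14). NID2 averaged 57.1 ± 3.49 CPM in ectoderm cells and 31.4 ± 4.30 CPM in primed cells (0.87 ± 0.10), while its relative NID1 averaged 99.9 ± 3.80 CPM in ectoderm cells and 248 ± 13.4 CPM in primed cells (−1.32 ± 0.06).

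COL4A6 had 71.7, 76.6 and 75.2 CPM in ectoderm cells, against 21.5, 23.4 and 19.3 CPM in primed cells, and COL4A5 averaged 53.8 ± 3.06 CPM in ectoderm cells and 21.1 ± 2.49 CPM in primed cells. Both chains were higher in each ectoderm library (1.81 ± 0.10 and 1.36 ± 0.11). COL4A1 had 193, 201 and 233 CPM in ectoderm cells, against 241, 229 and 228 CPM in primed cells, and COL4A2 had 168, 184 and 194 CPM in ectoderm cells, against 199, 215 and 198 CPM in primed cells. Their changes of −0.15 ± 0.06 and −0.16 ± 0.06 passed narrowly (adjusted p = 0.0418 and 0.0293), the COL4A1 groups overlapped, and with GC and length trends removed both turned positive, to 0.057 for COL4A1 and to a called 0.45 for COL4A2. COL6A1 averaged 85.8 ± 2.56 CPM in ectoderm cells and 266 ± 1.78 CPM in primed cells (−1.63 ± 0.06), COL18A1 23.6 ± 2.12 CPM in ectoderm cells and 121 ± 6.66 CPM in primed cells (−2.36 ± 0.09) and COL5A2 21.7 ± 2.72 CPM in ectoderm cells and 92.7 ± 2.61 CPM in primed cells (−2.07 ± 0.09). Of the laminin chains LAMB1 rose, at 331 ± 12.5 CPM in ectoderm cells and 186 ± 9.04 CPM in primed cells (0.83 ± 0.06), LAMA1 rose slightly (0.16 ± 0.06), LAMA5 fell (−1.33 ± 0.10) and LAMC1 fell slightly (−0.29 ± 0.05). The LAMA1 call was lost without a filter on low counts (adjusted p = 0.0540), without nontargeting primed replicate 2 (adjusted p = 0.296) and without nontargeting ectoderm replicate 1 (adjusted p = 0.0628).

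GC-rich genes as a whole were lower in ectoderm cells, with a median log2 change of −0.68 over 1449 genes and −1.33 over the 11 GC-rich genes among the 41. With GC and length trends removed these medians were 0.02 and −0.63. Then 36 genes passed, 10 higher and 26 lower, and the changes shrank to −1.28 for COL18A1, −0.92 for COL6A1, −0.72 for COL6A2, −0.45 for HSPG2, −0.80 for ITGA3 and −0.32 for LAMA5. The part of GC content in the main values was not tested beyond that. Of 27 adhesion adaptors 3 were higher and 18 lower in ectoderm cells, with kindlin FERMT2 at 729 ± 14.4 CPM in ectoderm cells and 172 ± 1.91 CPM in primed cells (2.08 ± 0.05) and CAV1 at 2.60 ± 1.09 CPM in ectoderm cells and 60.8 ± 3.67 CPM in primed cells (−4.58 ± 0.17). Of 26 collagen synthesis genes 4 were higher and 16 lower. Beside these lists, 30.7% of all genes tested were higher and 32.1% lower. All 6 fibroblast markers that could be tested were lower, and the list of 14 summed to 10.8 to 11.4 RPKM in ectoderm cells and 22.7 to 24.4 RPKM in primed cells. The endothelial markers summed to 15.7 to 16.5 RPKM in ectoderm cells and 50.4 to 51.3 RPKM in primed cells. The part of these markers in the result was not tested.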

How the data were processed

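Libraries were prepared with the TruSeq Stranded mRNA kit from RNA of the RNeasy Mini Plus kit, per the labels' protocols. HISAT2 and the build GRCh38 are named per the submitters' processing notes. The sources used here give no aligner version, counter, strand setting or annotation. The authors deposited whole-number read counts per gene, without normalization, in a table of 18 H1 libraries and a table of 6 H9 libraries. The first also holds a deposited gene length in bases and 27 further columns that match no sample described here and were not used. Of 60671 gene IDs, 60401 had a symbol and 58453 were found in GENCODE 29.

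Each of 6 comparisons was fitted from the counts on its own 2 groups with edgeR 4.0.16 in R 4.3.3 (filterByExpr, TMM scaling, 2-sided quasi-likelihood F test, Benjamini-Hochberg adjustment over all genes tested, threshold 0.05). A further fit tested the difference of the naive minus primed change between H9 and H1. CPM are TMM-scaled within a comparison, so a control differs slightly between fits. RPKM are TMM-scaled over all 24 libraries and divided by the deposited length. GC content came from GENCODE 29, the start sequence from RefSeq GRCh38.p14. The edgeR fit was tested on simulated data.

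Alternatives were DESeq2 1.42.0, RLE factors, no filter on low counts, all H1 groups in one fit, a replicate block, removal of GC and length trends alone and with the block, total-count scaling of the levels, and each library left out. GC medians by group were added after the data were seen. Replicates of a group differed by a chi-square of 2.44 to 9.16 per degree of freedom. Each was counted as 1 sample, although this spread does not show whether the replicates were separate cultures. Precision of a level is given by the SD over 3 libraries.

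All 41 genes could be named. Values per library went to genes that passed, reached a mean of 5 CPM and had groups that did not overlap, up to 8 higher and 8 lower by size of change, and to FN1, ITGB1, COL4A1 and COL4A2 in every comparison. Of other pathway lists, up to 3 genes with the smallest adjusted p were named. The 41 genes and the lists were chosen with earlier results of these data known.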

Additional observations from a re-analysis of the deposited data

Results flagged for a closer look

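The naive minus primed change differed between H9 and H1 cells for 31 of 40 genes, by the interaction term of edgeR's quasi-likelihood fit (adjusted p under 0.05), where 49.9% of all genes tested differed. Values are log2 differences, H9 minus H1. The line cannot be told apart from the count table, the nontargeting construct and the doxycycline of the H1 cells.

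Collagen chains with the lower change in H9 were COL2A1 (−3.13), COL18A1 (−2.13), COL5A1 (−1.52), COL4A5 (−1.18), COL5A2 (−0.81) and COL1A2 (−0.68), and those with the higher change were COL12A1 (4.27), COL11A1 (2.85), COL1A1 (1.97), COL6A1 (1.79) and COL4A4 (1.45). COL12A1 became 5.32 without nontargeting naive replicate 1. Among laminin chains and linkers, the differences were −1.96 for LAMA4, −1.50 for LAMA5, −0.58 for LAMB2, 0.37 for LAMB1, 0.40 for LAMC1, 2.08 for LAMA1, 1.11 for NID1 and 1.97 for HSPG2. Among glycoproteins they were −3.95 for TNC, −2.14 for FN1, −1.44 for FBN2, −1.03 for SPARC, 1.03 for FBN1 and 2.12 for VCAN. Among integrin chains they were −4.28 for ITGB3, −0.71 for ITGAV, 0.29 for ITGB5, 1.08 for ITGA1, 1.14 for ITGA3 and 1.29 for ITGA5. ITGB3 had almost no counts outside naive H1 cells, and its value ran from −5.22 to −3.53 when single libraries were left out. The call of ITGB5 was lost in 2 of the alternatives run and that of FBN1 without naive H9 replicate 3.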

How the results depend on the processing

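The number of genes that passed stayed within 1.5 times the reported one under each alternative, except in the CARHSP1 comparison without CARHSP1 knockdown replicate 2, which left 12 of 19. With 1 library left out, counts ran from 12 to 21 for CARHSP1, 29 to 31 for ZNF8, 20 to 25 for ZIC2, 30 to 34 for H9, 34 to 34 for naive against primed H1, 33 to 37 for ectoderm and 30 to 33 for the difference between lines. With DESeq2 they were 17, 33, 24, 33, 34, 35 and 31. Replicate numbers did not pair the libraries, since same-numbered libraries correlated by −0.12 to 0.15. With the replicate block 21, 33, 25, 33, 34, 36 and 31 genes passed, ITGB5 and LAMB2 being gained for CARHSP1 and ITGB1 for ZIC2 (adjusted p = 0.0279) and FBN1 lost for ZNF8. In the CARHSP1 fit each library correlated best with its own number, a hint from the data and not the design.

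With GC and length trends removed, 24 genes passed for CARHSP1, 33 for ZNF8, 23 for ZIC2, 36 for H9, 37 for naive against primed H1, 36 for ectoderm and 33 for the difference between lines. Among called genes and FN1, ITGB1, COL4A1 and COL4A2, some signs turned there, both without and with the block. In the CARHSP1 comparison these were COL1A1 (0.0023 and 0.0028), COL4A2 (0.23 and 0.23) and LAMA5 (0.048 and 0.049). They were COL6A1 (−0.14 and −0.14) in that of ZIC2, and COL4A1 (0.057 and 0.050) and COL4A2 (0.45 and 0.44) in that of ectoderm. Some genes that had not passed turned and were then called. They were HSPG2 (−0.13 to 0.19) and COL18A1 (−0.090 to 0.20) for CARHSP1 and COL6A2 (0.24 to −0.31) for ZIC2. COL5A1 did so for ectoderm (−0.13 to 0.37) and LAMC1 for naive against primed H1 (−0.014 to 0.13). In the difference between lines COL4A1 ran from −0.173 to 0.00042 with 1 library left out, and turned without primed H9 replicate 3. Among genes called in a comparison, with FN1, ITGB1, COL4A1 and COL4A2 in each, 2822 alternative values kept direction and side of the threshold, 108 lost the call, 15 gained one and 13 turned. The other genes, which had not passed, gained 57 calls over 24 pairs of a gene and a comparison. Besides its values given above, COL12A1 became 4.36 for ZIC2 and −5.56 for ectoderm without nontargeting ectoderm replicate 3. COL4A4 became −3.11 for ectoderm without the same library, and ITGB3 6.13 for naive against primed H1 without nontargeting primed replicate 1. The cause was not tested.

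For genes with few counts (COL3A1, ITGB3, COL4A4 in ectoderm cells, LAMA4 and COL12A1) counting error is large, and low depth and low expression cannot be told apart. The 3 libraries a group limit all tests.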
